A study of Beta vulgaris with 6 samples.

Results

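The transcripts described here are those of 2 sugar beet probes annotated to the general RNA polymerase II machinery. Probe P22559 (EST BQ582428, gene model Bv4u_091120_gpyr.t1) carries the Arabidopsis description of RNA polymerase II transcription mediator activity, from locus AT3G01435. Probe P21243 (EST BQ583787, gene model Bv1u_023110_esno.t1) is described as RNA polymerase Rpb6 (NRPB6A), from locus AT5G51940. They are 2 of the 53752 non-control probes of the array and 2 of the 22314 probes retained after the flag filter defined below. Both were chosen by their annotation and because their values differed in opposite directions between bolting-resistant and bolting-sensitive genotypes in these same samples. Their difference between the groups is therefore given as a description, without a test.

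Bolting is the elongation of the flowering stem, which a biennial sugar beet undertakes after a winter and which ends its use as a root crop. The 6 biennial genotypes of Beta vulgaris altissima were grown for 8 weeks at 22 °C with a 16 h photoperiod and then kept for 9 weeks at 4 °C. The shoot apical meristem was isolated directly after the cold. Its total RNA was copied into Cy3-labelled complementary RNA, with which a custom Agilent array was probed. The resistant group, with a low capacity to bolt, comprised genotypes 1, 4 and 7, and the sensitive group, with a high capacity to bolt, genotypes 2, 3 and 5. There were 8 arrays, 4 in each group, since genotypes 3 and 7 had 2 arrays apiece and the other genotypes 1. All genotypes had received the cold treatment, so the groups differ by genotype and not by vernalization. Each group holds 3 genetically distinct genotypes with 1 meristem sample each, so its spread is the spread between genotypes, and the spread between plants of 1 genotype was not measured. Markers of the meristem could not be paired with probes, and the tissue was not checked.

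Mediator is a large complex that links transcription factors bound at enhancers to RNA polymerase II at the promoter. Its head module touches the polymerase, and AT3G01435 is assigned in Arabidopsis to the Med11 subunit of that module. RPB6 is a small core subunit common to the nuclear RNA polymerases of eukaryotes and related to the omega subunit of the bacterial enzyme, and Arabidopsis has a second copy, NRPB6B. In plants, Mediator subunits are known from mutants for roles in flowering time, among other processes. The expression of these genes in the sugar beet meristem was measured here by 1 spot each, at row 92 and column 130 for P22559 and at row 271 and column 114 for P21243. The genome positions of the spotted probes are not given in the sources used here.

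The array values are background-subtracted Cy3 intensities on a linear scale. To set arrays against each other, each intensity was divided by the 75th percentile of the non-control spots of its array, which lay between 288.4 and 422.6, and log2 was taken; a level of 0 is thus the 75th percentile. The share of spots well above background was 42.6% to 45.0% per array, 0 spots were saturated, and all arrays shared 1 slide and 1 scan. Levels of the 2 probes cannot be set against each other, as each probe binds its target with its own strength. The comparisons below are made within a probe. Less RNA per cell and fewer cells with the transcript cannot be told apart in such a sample. Whether the genotypes differ in sequence under a probe was not tested, here or for the other probes named below.

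The Mediator probe P22559 was at a high level in the resistant genotypes. Its intensity was 3037.64 in genotype 1, 2494.32 in genotype 4, and 3002.26 and 3206.2 on the 2 arrays of genotype 7. In the sensitive genotypes it was 1024 in genotype 2, 831.631 and 825.239 on the 2 arrays of genotype 3, and 671.818 in genotype 5. Every array of a resistant genotype was thus brighter than every array of a sensitive one before any scaling.

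Divided by the 75th percentile, the signal of P22559 was 7.27-fold that percentile in genotype 1, 8.65-fold in genotype 4, and 8.25- and 8.54-fold on the arrays of genotype 7. The corresponding signals were 2.60-fold in genotype 2, 1.97- and 2.00-fold in genotype 3, and 1.95-fold in genotype 5. The log2 levels, with duplicate arrays averaged, were 2.86 in genotype 1, 3.11 in genotype 4 and 3.07 in genotype 7, against 1.38 in genotype 2, 0.99 in genotype 3 and 0.96 in genotype 5. The group means were 3.01 ± 0.13 in the resistant group and 1.11 ± 0.23 in the sensitive group (SD, n = 3 each). The difference was 1.91 (SE 0.155), or 3.75-fold, and each of the 9 pairs of a resistant and a sensitive genotype differed by more than 2-fold, from 1.48 to 2.15 on the log2 scale.

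The order of P22559 levels from high to low was genotype 4, 7, 1, 2, 3 and 5. Genotypes 4 and 7 lay 0.043 apart, less than the 0.048 between the duplicate arrays of genotype 7. Genotypes 3 and 5 lay 0.028 apart, also under that value. Genotype 1 was 0.21 below genotype 7, and genotype 2 was 0.39 above genotype 3, both more than the duplicates differed. The step from the lowest resistant to the highest sensitive genotype was 1.48, or 2.80-fold, and so exceeded the whole range within the resistant group (0.25) and within the sensitive group (0.42).

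The RPB6 probe P21243 ran the other way and spread far more within the groups. Its intensity was 1292.22 in genotype 1, 1919.01 in genotype 4, and 452.911 and 594.129 on the 2 arrays of genotype 7. In the sensitive genotypes it was 3354.74 in genotype 2, 11448.4 and 11538.6 on the 2 arrays of genotype 3, and 9000.13 in genotype 5. Here too the groups did not overlap before scaling, this time with the sensitive genotypes brighter.

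Relative to the 75th percentile, P21243 reached 3.09-fold in genotype 1, 6.65-fold in genotype 4, and 1.25- and 1.58-fold on the arrays of genotype 7. It reached 8.52-fold in genotype 2, 27.1- and 28.0-fold in genotype 3, and 26.1-fold in genotype 5. On the log2 scale these levels were 1.63, 2.73 and 0.49 in genotypes 1, 4 and 7, and 3.09, 4.78 and 4.70 in genotypes 2, 3 and 5. The means were 1.62 ± 1.12 in the resistant group and 4.19 ± 0.96 in the sensitive group (SD, n = 3 each). Resistant minus sensitive was -2.57 (SE 0.851), a level 5.96-fold higher in the sensitive group, and 8 of the 9 pairs of genotypes differed by more than 2-fold.

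The order of P21243 levels was genotype 3, 5, 2, 4, 1 and 7. Genotypes 3 and 5 were 0.078 apart, within the 0.345 that separated the duplicate arrays of genotype 7, although more than the 0.045 between those of genotype 3. The remaining neighbours differed by 1.61 (genotypes 5 and 2), 0.36 (2 and 4), 1.11 (4 and 1) and 1.14 (1 and 7). The boundary between the groups therefore fell on the smallest of these 4 steps, 1.28-fold, which is close to the difference between duplicate arrays of genotype 7. Without genotype 4 the step between the groups was 1.46, and without genotype 2 it was 1.97. At the ends of the order, genotypes 3 and 7 differed by 4.29, or 19.6-fold. The range was 2.25 within the resistant and 1.69 within the sensitive group.

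**Figure D1:**
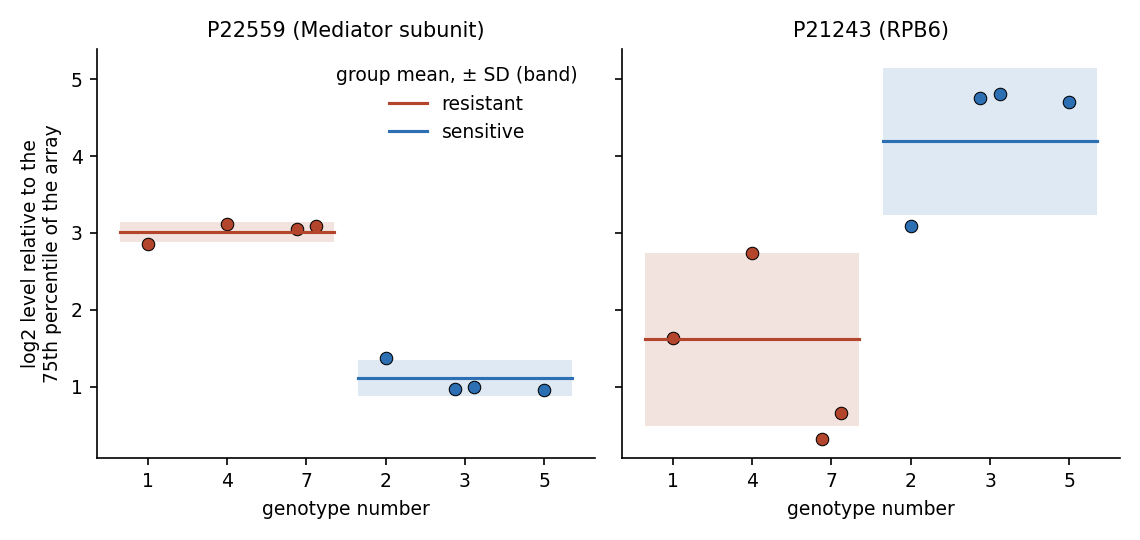
Vertical axis, log2 of the signal divided by the array's 75th percentile, plotted by genotype number for P22559 (left) and P21243 (right), with 1 point per array, a line at each group mean over 3 genotypes and a band of ± SD. P22559 forms 2 narrow groups at 3.01 and 1.11, whereas the points of P21243 run from 0.32 to 2.73 in the resistant group and from 3.09 to 4.81 in the sensitive group.

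Both probes passed all flags on 8 of 8 arrays, so that neither difference rests on a signal near background. P22559 was 124.8 to 173.9 times the lowest intensity well above background in the resistant group and 27.6 to 38.3 times in the sensitive group. P21243 was 26.2 to 96.0 times that intensity in the resistant group and 125.3 to 439.5 times in the sensitive group. The software gave each of these signals an error of about 10%, and the local background around the spots was 19 to 27.

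The duplicate arrays give the technical error of each probe. For P22559 they differed by 0.023 in genotype 3 and 0.048 in genotype 7 (log2). A larger difference was found for 77.7% and 61.2% of the filtered probes, respectively. For P21243 they differed by 0.045 in genotype 3, which 58.4% of the filtered probes exceeded, but by 0.345 in genotype 7, which only 4.27% exceeded. The median duplicate difference of genotype 7 over all filtered probes was 0.0658. The genotype 7 value of P21243, the lowest of the series, is therefore less precise than the others that were measured on duplicate arrays, and the remaining genotypes had no duplicate.

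The 2 probes also differed in their spread within groups. The SD within groups, pooled over both, was 0.19 for P22559 and 1.04 for P21243, against a median of 0.35 over the filtered probes. Of the filtered probes, 81.7% had a larger SD than P22559 and 10.67% a larger SD than P21243. The difference between the groups was 10.01 times the pooled SD for P22559 and 2.47 times for P21243, although the RPB6 probe had the larger fold. Both probes were chosen on this contrast, which also bears on their spread. These shares and ratios are therefore a description, and no support is drawn from them. Genotypes kept different ranks for the 2 probes: genotype 4 was the highest resistant genotype for both, whereas genotype 7 lay 0.055 above its group mean for P22559 and at -1.13 from it for P21243. Genotype 2 lay on the side of the resistant genotypes within the sensitive group for both probes, 0.27 above the group mean for P22559 and at -1.10 from it for P21243.

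The ratio of the 2 probes within an array does not depend on the scaling. Centred on its mean over the genotypes, the log2 ratio of P22559 to P21243 was 2.08, 1.22 and 3.42 in genotypes 1, 4 and 7. It was -0.87, -2.95 and -2.90 in genotypes 2, 3 and 5. The ratio was thus 4.48 higher on the log2 scale in the resistant group (SE 0.939), or 22.3-fold, with a gap of 2.09 between genotypes 4 and 2. Over the 6 genotypes the 2 probes had a Pearson correlation of -0.868, a description in which the points fall into the 2 groups that were used to choose the probes. Within the resistant group the correlation was 0.153 and within the sensitive group -0.995, each over 3 genotypes, too few to read a relation from.

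**Figure D2:**
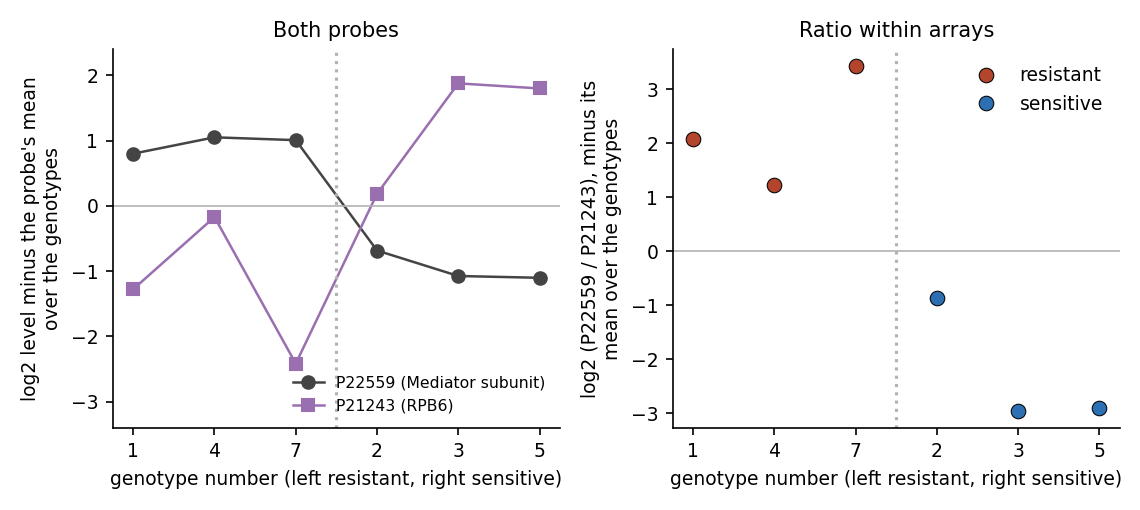
Left, the log2 level of each probe minus its mean over the 6 genotypes (vertical axis) by genotype number, resistant genotypes 1, 4 and 7 to the left of the dotted line. Right, the log2 ratio of P22559 to P21243, centred in the same way, which runs from 1.22 to 3.42 in the resistant group and from -2.95 to -0.87 in the sensitive group.

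To place these values, all filtered probes were compared between the groups with limma. A probe was retained, or filtered, when it passed all flags on all arrays of at least 1 group. Groups did not overlap for 1628 filtered probes (7.3%), with the resistant genotypes higher for 825 (3.7% of those filtered) and the sensitive genotypes higher for 803 (3.6%). The means differed by over 2-fold for 7.02% of the filtered probes. A difference over 2-fold without overlap, as both the Mediator and the RPB6 probe showed, was seen for 353 probes (1.58%). In the direction of P22559, 182 filtered probes (0.816%) had a larger difference. In the direction of P21243, 139 (0.623%) did. The median difference over all filtered probes was 0.0090. As the rule for the 2 probes used this contrast, nothing is read from their place in it.

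**Figure D3:**
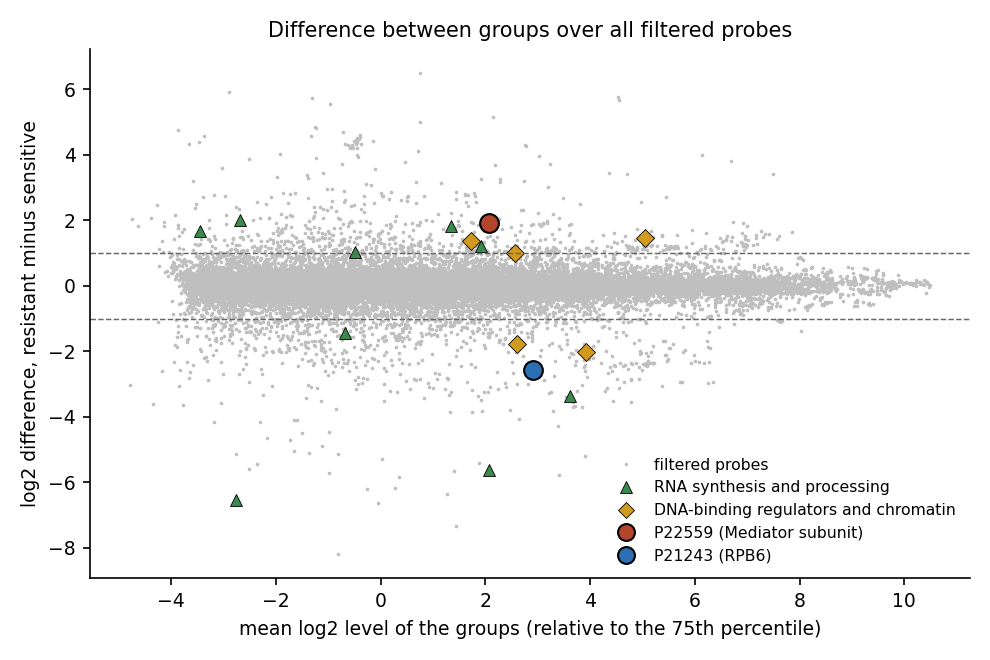
The log2 difference between the groups, resistant minus sensitive (vertical axis), is plotted against the mean log2 level of the groups for the 22314 filtered probes (grey), with the 2 polymerase-machinery probes and the 2 annotation lists marked and dashed lines at a 2-fold difference. P22559 lies at 1.91 and P21243 at -2.57.

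The profiles most like each probe were found among the 20713 probes that passed all flags on all arrays, by the root mean square distance between log2 profiles centred over the 6 genotypes. The nearest to P22559 was P19888, for which the sources used here give no annotation, at a distance of 0.027. Its levels were 3.62, 3.94 and 3.86 in genotypes 1, 4 and 7 and 2.20, 1.79 and 1.80 in genotypes 2, 3 and 5, with a difference of 1.87 against 1.91 for P22559. Second was P19929, also without annotation, at 0.093 (difference 1.75), and the third was P22212 (BQ582791, an unknown protein) at 0.178 (difference 1.75). The distance to P19888 is of the size of the duplicate differences of P22559 itself.

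Profiles that mirror P22559, high where it is low, were led by P9537 (CF542935, with no significant Arabidopsis hit) at 0.127 and a difference of -1.80. P8164 (0.194, difference -1.91) and P7085 (0.202, difference -1.77) followed, neither of them annotated in the sources used here. Within a distance of 0.5 lay 36 probes with a profile like that of P22559 and 23 with the mirrored profile. By correlation over the 6 genotypes, which leaves out the size of the profile, 26 probes had an r over 0.95 with P22559 and 29 an r under -0.95.

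The nearest probe to P21243, P21895 (BQ583117), encodes a protein with RNA-recognition motifs, a domain that binds RNA, and lay at a distance of 0.700. The levels of P21895 were 1.04, 3.70 and 1.06 in genotypes 1, 4 and 7 and 3.69, 5.77 and 6.45 in genotypes 2, 3 and 5, so that its groups overlapped, with genotype 4 at about the level of genotype 2. P19839 (0.701) and P22623 (0.712), which carry no annotation here, came next, each with a difference of -1.21 and overlapping groups. Like P21243, these 3 probes were highest in genotype 4 within the resistant group and lowest in genotype 2 within the sensitive group. As they were chosen by their likeness to P21243, this shared order largely follows from that choice.

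The mirrored profiles were nearer to P21243 than any like profile. P13112 (BQ592431, no significant Arabidopsis hit) lay at 0.317 with a difference of 2.52, and P12855 (BQ592697, annotated as TBL31) at 0.472 with a difference of 2.67. Both are paired with 1 gene model, Bv9_215490_ptez.t1, so they may not be separate genes. TBL proteins are known in Arabidopsis for the acetylation of cell wall polymers. The third was P28322 (BF011005), for beta-amyrin synthase, an enzyme of triterpenoid synthesis, at 0.575 with a difference of 1.90. Within a distance of 0.5 there were 0 like and 2 mirrored probes for P21243, whose profile was larger, with a root mean square of 1.54 against 0.97 for P22559, so that counts within a fixed distance are not comparable between the 2 probes. By correlation, 24 probes had an r over 0.95 with P21243 and 20 an r under -0.95. The distance of P21243 from the mirror image of P22559 was 0.853.

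**Figure D4:**
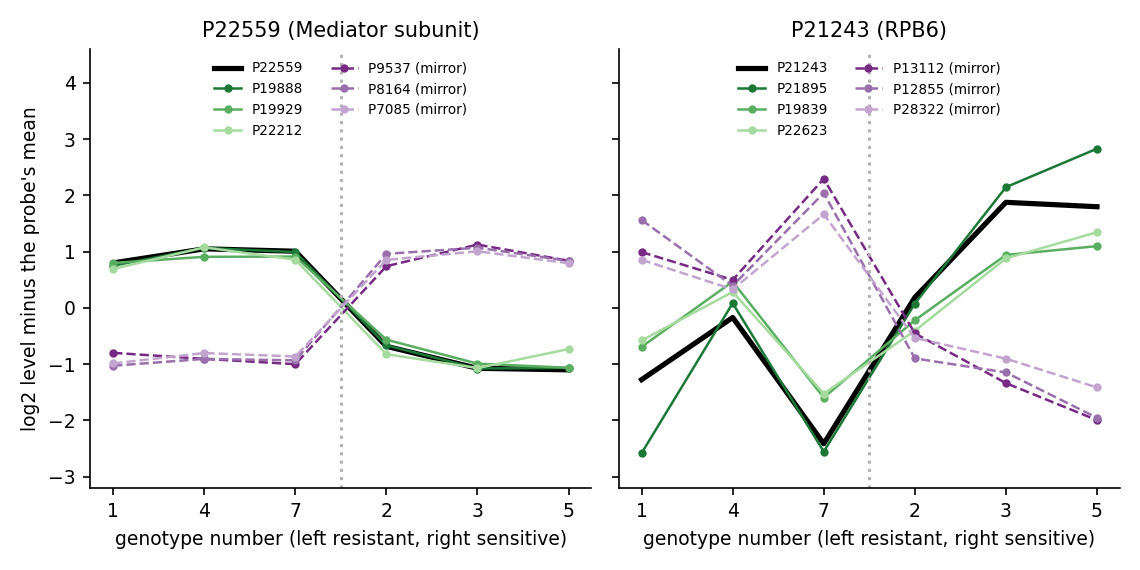
Log2 level minus each probe's mean over the genotypes (vertical axis) by genotype number, for P22559 (left, black) and P21243 (right, black), with the 3 nearest probes (green, solid) and the 3 nearest to the mirror image (purple, dashed). The lines lie on each other for P22559, at distances of 0.027 to 0.202, and apart for P21243, at 0.317 to 0.712.

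The other genes of RNA synthesis and processing were taken from the study's list of 169 named sequences that differ between the groups, by their Arabidopsis description. That list was chosen on these samples, at a p and a fold limit, so that the counts, the directions and the sizes of its differences follow from that choice and are not independent evidence. Of 11 such probes, 9 were filtered, and all 9 passed an unadjusted limma p of 0.05 with over 2-fold, 5 toward the resistant and 4 toward the sensitive group. Over all filtered probes 389 (1.74%) did so, 0.748% toward the resistant and 0.995% toward the sensitive group. After Benjamini-Hochberg adjustment over all filtered probes, 2 of the 9 passed (P27716 and P20413), against 18 of all (0.0807%). Of these 2, P20413 was retained through the sensitive group only. P22509 and P19327, counted at the unadjusted limit, were retained through the resistant group only. The descriptions of P20413, P22509 and P19327 do not name RNA, so the counts also depend on placing them in this list. When flags had to be met in both groups, 6 of the list passed the unadjusted limit, 3 of them toward the resistant group. After adjustment 1 passed. Without genotype 3, 0 of the list and 0 of all filtered probes passed the adjusted limit, against 344 of all at the unadjusted one. The groups did not overlap for 8 of the 9, against 7.3% of all filtered probes. The median size of the 9 differences was 1.84, from 1.02 to 6.55, against 0.189 over all filtered probes. With the 2 probes that were below background in 1 group set at the lower limit of their fold, the median was again 1.84 and the largest size 5.63.

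Genes of the spliceosome's Sm core, the protein ring around small nuclear RNAs, were found in both directions. P27716 (BI096077), for small nuclear ribonucleoprotein F, was at -0.50, -0.77 and -0.96 in genotypes 1, 4 and 7. It was at 5.16, 4.76 and 4.74 in genotypes 2, 3 and 5. This is a difference of -5.63 (limma SE 0.21, limma adjusted p = 0.00504), with the probe well above background on all arrays. P8602 (CK136266), for ribonucleoprotein D2, stood at 2.26 ± 0.12 in the resistant group and 0.42 ± 0.37 in the sensitive group (SD, n = 3 each). Its difference of 1.84 (limma SE 0.24) passed the unadjusted limit only (limma adjusted p = 0.181). The limma SE is not comparable with the SE given above for P22559, P21243 and their ratio, which comes from the SDs of the groups. P16514 (BQ588809), for the pre-mRNA splicing factor RBM22/SLT11, was higher by 1.02 in the resistant genotypes at the unadjusted limit (limma adjusted p = 1.00).

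Among helicases and nucleic acid-binding proteins of the list was P20413 (BQ584634), a putative DEAD/DEAH box helicase, of the kind that unwinds RNA or DNA. Its description does not say which of these it unwinds. P20413 was well above background on 4 of 4 sensitive and 0 of 4 resistant arrays. Its level in the sensitive genotypes was at least 25.4-fold higher, the fold being a lower limit set against the lowest signal well above background or the probe's own. P22509 (BQ582480), a single-stranded nucleic acid binding R3H protein, was well above background on the 4 resistant arrays and 0 sensitive ones, so that the resistant level was at least 2.49-fold higher. Both probes were retained through the group in which they are high, and no p is given for them. P17475 (BQ587803), a protein with RNA-recognition motifs, was at -1.39 ± 0.30 in the resistant group and 0.04 ± 0.20 in the sensitive group (SD, n = 3 each; limma adjusted p = 0.430). P21895, the nearest profile to P21243, had a difference of -3.37 with an adjusted p of 1.00 by limma.

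P23497 (BQ489884), for the small-RNA effector Argonaute AGO2, was higher by 1.22 in the resistant genotypes at the unadjusted limit (limma adjusted p = 1.00). P19327 (BQ585796), described as a sequence-specific DNA binding transcription factor, had a difference of 2.00. By that description it could also stand in the list of DNA-binding regulators below. P19327 was well above background on 4 of 4 resistant and 3 of 4 sensitive arrays. This probe was thus retained through the group in which it is high, and no p is given for it. The remaining 2 of the 11 were not filtered. P10286 (BQ595400), for a mitochondrial transcription termination factor, was well above background on 2 resistant and 3 sensitive arrays. P3833 (EG552344), for another ribonucleoprotein of the small nuclear family, was so on 3 resistant and 0 sensitive arrays.

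A second list held 5 DNA-binding regulators and chromatin genes from the same source. All 5 were filtered, passed the unadjusted limit and did not overlap between the groups, and 0 passed after adjustment with limma, against 1.74%, 7.3% and 0.0807% of all filtered probes. As with the first list, the choice of these genes fixed this. Heat shock factor P15243 (1.36), the MADS-box gene FRUITFULL (P20370, 1.01) and histone H3 (P905, 1.47) were higher in the resistant genotypes. The MADS-box genes SVP (P16456, -2.01), a repressor of flowering in Arabidopsis, and AGL24 (P25233, -1.78), a promoter of flowering there, were higher in the sensitive ones. Both are paired with transcripts of 1 gene model, Bv9_227800_mryh, so they may not be separate genes. The gap between the groups was 1.48 for P22559, 0.36 for P21243 and 0.26 to 1.03 for the 5 probes of this list. In the first list the gap of P27716 was 5.25. The gaps of P22509 (1.52) and P20413 (5.79) were taken against a group not well above background and are therefore not measured sizes. The 2 probes and both lists were chosen on this same contrast, so the gaps are a description and no rank is read from them.

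**Figure D5:**
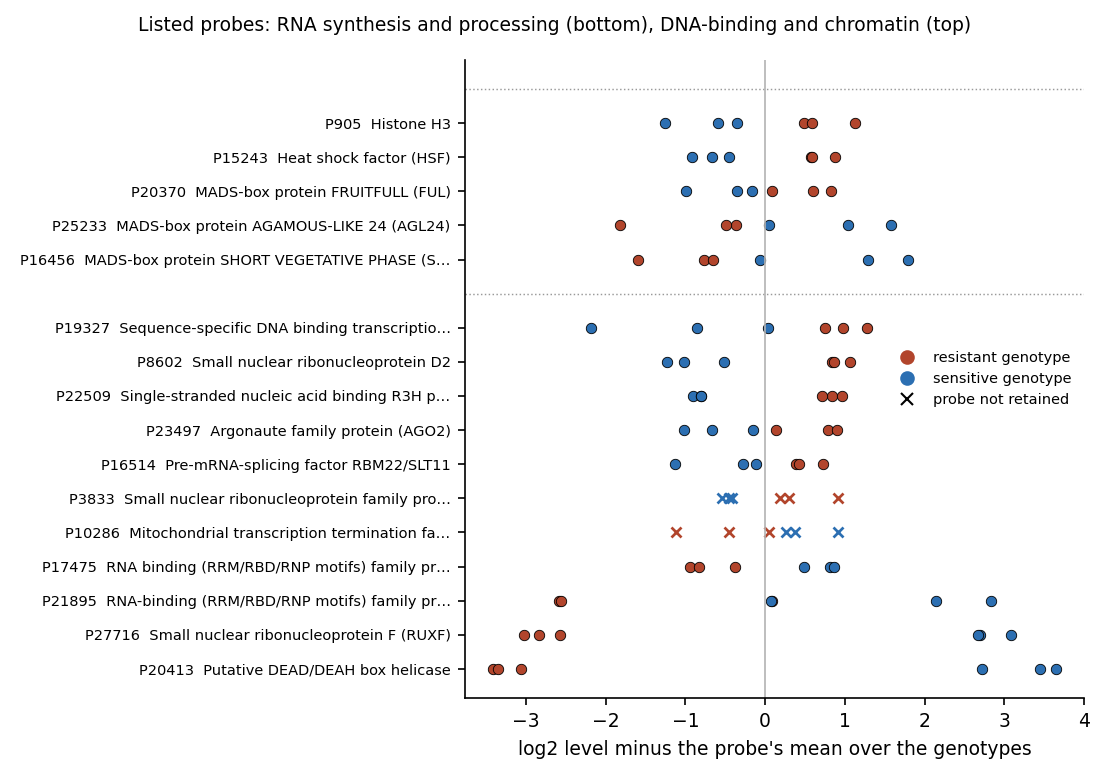
Log2 level minus each probe's mean over the genotypes (horizontal axis) for the 11 probes of RNA synthesis and processing and the 5 of DNA-binding regulators and chromatin, 1 point per genotype, with crosses for the 2 probes that were not filtered. P20413, whose resistant points are not well above background, and P27716, with a difference of -5.63, lie apart from the rest, and P21895 shows the overlap at genotypes 2 and 4.

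Sequences whose gene models carry numbers near those of the 2 genes were looked up in the same list after their values had been seen. Bv1u_023040 and Bv1u_023060 are near the RPB6 model in number. The former, P13786 (BQ591726, an N-hydroxycinnamoyl/benzoyltransferase-like mRNA), was lower in the resistant genotypes by a difference of -1.29, as P21243 was. The latter, P22119 (BQ582886, F-box protein PP2-A13), was higher by 1.28. The nearest to the Mediator model, P15531 (BQ589845, gene model Bv4u_091720, no significant Arabidopsis hit), was well above background on the resistant arrays only, 4 of 4. Its level there was at least 6.35-fold higher. The distance between these models on the genome is not given in the sources used here.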

How the data were processed

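The scanner files that the authors deposited, 1 per array, come from Feature Extraction (version 10.7.3.1) and give a Cy3 intensity after background subtraction and detrending, without normalization across arrays. A further deposited table holds log2 values scaled to the 75th percentile and to each probe's median, which was used as an alternative. Here, log2 intensity minus that of the 75th percentile of the non-control spots was averaged over the spots of a probe and then over the arrays of a genotype. Groups follow the sample labels. All filtered probes were fitted with limma 3.58.1 in R 4.3.3 (lmFit, eBayes, Benjamini-Hochberg), tested on simulated data, at p 0.05 and 2-fold as in the methods. A retained probe was not saturated, not an outlier, and significant and well above background.

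Members and lists were chosen with earlier results of these data known. Named are the 2 probes, 2 lists picked by annotation, and per probe the 3 nearest and 3 mirrored profiles. Probes were paired with accessions through the study's supplementary list. The number of arrays limits the precision. Alternatives covered scaling, background, filter, duplicate arrays, test and left-out genotypes. Figures were drawn with matplotlib 3.10.9. The authors' methylation data and qRT-PCR were not analysed here.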

Additional observations from a re-analysis of the deposited data

How the results depend on the processing

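The difference of P22559 kept its direction under 18 of 18 alternatives, from 1.72 (normexp) to 2.04. P21243 did so under 18 of 18, from -3.13 without genotype 4 to -2.01 without genotype 7. The ratio of the probes changed by 3.89 to 5.17 under 16 of 16. Settings that only rescale an array, such as the array median, cancel in this ratio, which was again 4.48. The groups stayed apart in all 16 settings for both probes. Leaving out a genotype could not make groups that were apart overlap, nor reverse a difference or the ratio. Those settings therefore show only how far the size moved. The gap was 1.28 to 1.87 for P22559. For P21243 it was 0.345 to 0.806, the latter with no scaling, but 1.46 without genotype 4 and 1.97 without genotype 2, so these 2 genotypes set it.

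Against 389 probes called by limma, 776 were called with no flag filter. The methods' t-test with equal variances called 181 and its Welch form 132, with 0 after adjustment for both, on the same values of 3 genotypes a group. The leave-one-out counts ran from 320 to 765, the latter without genotype 1. After adjustment they ran from 0 (without genotype 3) to 17, against 18 with all genotypes. Of the RNA synthesis and processing probes, 6 to 10 were called. Of the DNA-binding and chromatin probes, leave-one-out gave 3 to 5, with 3 without genotype 3. Scaling to the array median moved the median of all filtered probes to 0.134. It made 60% of its 420 calls higher in the resistant group, against 42.9% in the main comparison. This share was 33.4% with no flag filter, 53.6% and 57.6% with the 2 t-tests, and 56.7% without genotype 3 or genotype 5. The causes were not tested.

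No paired analysis was possible because replicate numbers only name the genotypes in order of deposit. Slide and scan could not be a block, as there was 1 of each. No scaling, the array mean and local background subtraction without detrending were chosen after seeing the data. With 3 genotypes a group and 1 spot a probe, differences of the size of the duplicate error cannot be resolved.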
